A study of Mus musculus with 8 samples.

Results

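The genes of the constitutive proteasome and of its regulators were followed in B16F1 melanoma tumours grown in mice with and without TNF receptors. Members were the genes whose annotation symbol consists of Psma, Psmb, Psmc, Psmd, Psme, Psmf or Psmg followed by a number, except the immunoproteasome genes Psmb8, Psmb9 and Psmb10. They numbered 46 of the 18193 genes that had a probe set naming that gene alone, and 99 probe sets named them. Each gene was read from its brightest such probe set. Of the 46, 44 encode subunits, assembly chaperones, activators or an inhibitor of the proteasome. The other two, Psmc3ip and Psme3ip1, match by name only: they encode a partner protein of meiotic recombination and a protein that binds the activator PA28 gamma. Psme2, which encodes PA28 beta, was not a member because its probe set also names Psme2b.

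The proteasome degrades proteins tagged with ubiquitin. Its barrel-shaped 20S core is built of stacked rings of alpha and beta subunits, and the beta subunits Psmb5, Psmb6 and Psmb7 carry the cutting sites inside the barrel. The 19S cap binds ubiquitin chains, removes them and feeds the unfolded protein into the core through a ring of ATPases, while PA28 and PA200 are alternative caps. In cells exposed to interferon gamma, Psmb8, Psmb9 and Psmb10 take the place of the constitutive cutting subunits, and the products of these immunoproteasomes are loaded on MHC class I.

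Tumours of 4 groups were measured on 8 whole-genome mouse arrays. B16F1 is a pigmented mouse melanoma line from C57BL/6 mice, and its cells were injected under the skin of the right hind limb. The hosts were wild-type C57BL/6-NCr mice (WT) or mice with both TNF receptor genes disrupted (TNFR KO, from the stock B6;129S-Tnfrsf1a[tm1Imx] Tnfrsf1b[tm1Imx]/J), aged 8 to 12 weeks at the start. When tumours had reached 268 to 478 cubic mm, they were left untreated or received a single dose of 20 Gy of X-rays, and they were excised 5 h after treatment. The tumour cells carried intact receptor genes in every group, so only the host tissue lacked them. The stock name of the TNFR KO hosts holds a 129 background that the WT hosts do not have. The labels give 5 to 7 mice in wording that does not settle whether this counts each host, and they do not give the number per pool. The RNA was pooled by group, and the pools were each measured on 2 duplicate arrays. Values per array therefore show measurement error and not the spread between mice. The series addresses which tumour transcripts depend on TNF signalling in the host tissue and on irradiation.

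The signals of duplicate arrays correlated at 0.975 to 0.981 over all probe sets, those of both pools of a host at 0.971 to 0.972 and those across hosts at 0.955 to 0.964. All 10 melanocyte markers on a fixed list were above the level for testing, and their summed signal lay between 170263 and 205088 on every array. Transcripts added as controls before labelling (poly-A spike-ins) averaged 5311 to 10134 on the WT arrays and 12.0 to 20.8 on the TNFR KO arrays. Host differences below are therefore not separable from differences in how the targets were prepared. By pool the spike-ins averaged 5396 untreated and 10116 irradiated in WT, and 13.0 and 18.1 in TNFR KO hosts. Within WT hosts they thus also differed with treatment, and their part in the radiation differences was not tested. Probe sets of 18S ribosomal RNA averaged 293 and 529 in the untreated WT and TNFR KO pools and 340.0 and 944 after irradiation.

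Proteasome transcripts were bright and reproducible in every tumour pool. Of the 46 members, 44 reached the level for testing, a mean log2 signal of 6.41 or a signal of 68.8, which 11345 of the 18193 genes reached. Tested members read between 611.7 (Psmc3ip) and 20991 (Psmb4) on single arrays. The level therefore kept no member only through a group in which it was high. The 2 members below it were Psma8, an alpha subunit of germ cells, which read between 4.0 and 42.8, and Psmb11, the beta subunit of the thymus, which read between 35.5 and 71.5. Duplicate arrays differed by a median of 0.06 on the log2 scale for the tested members and 0.10 for all tested genes.

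**Figure D1:**
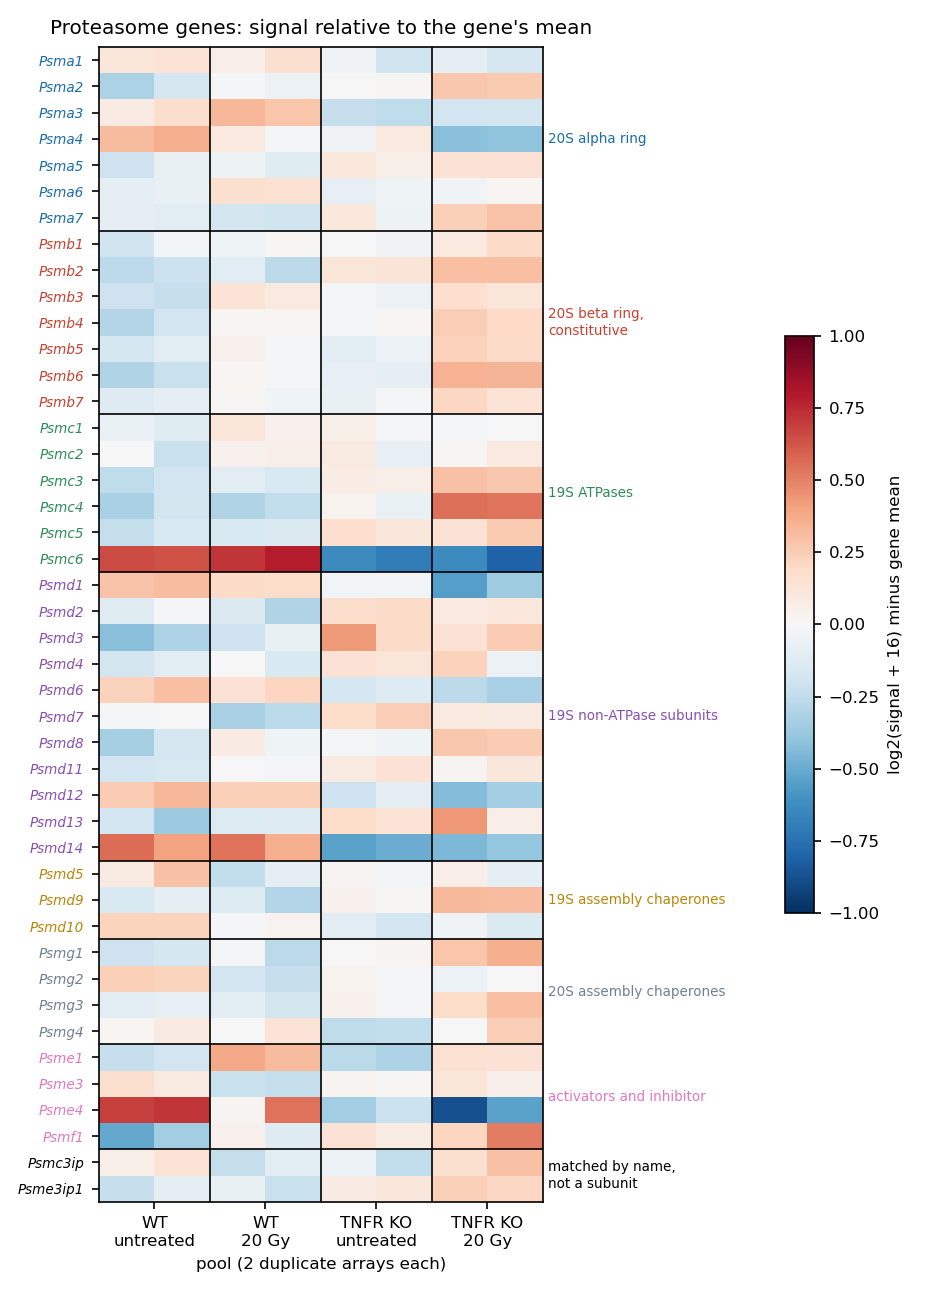
Signal of the 44 tested members on each of the 8 arrays (columns, 2 duplicate arrays per pool), as log2(signal + 16) minus the mean of the gene over the arrays (colour scale from -1 to 1), grouped by role (row colours). Most rows are pale, and the strongest colours are those of Psmc6, Psmd14 and Psme4, which were lower in both TNFR KO pools.

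Whether irradiation changed proteasome transcripts was examined over both hosts. No member passed the test as higher or as lower 5 h after 20 Gy: 0 of 44 were called by limma, against 1.9% of all tested genes (1.55% higher and 0.353% lower). At an unadjusted p under 0.05 there were 3 of the 44 members and 16.7% of all genes, and the lowest adjusted p of a member was 0.160. The difference after irradiation was above 0 for 32 members and below 0 for 12, with a median log2 difference of 0.07 for members and -0.02 for all genes. With median centring 14 of the 44 lay above 0, where the median of all genes was -0.16, and with quantile normalization 27 did. Relative to the median of all genes, 33 lay higher with the deposited scaling and 28 with quantile normalization. Median centring shifts all genes of an array alike, so it cannot change this count. The median size without regard to sign was 0.14 for members and 0.18 for all genes. In these bulk tumours, fewer cells of a type and less RNA per cell cannot be told apart.

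The constitutive beta ring stood on the higher side after irradiation in each of its tested subunits, in both hosts. Its 7 subunits differed by 0.11 to 0.35 on the log2 scale over both hosts, with a median of 0.23, and none of these differences passed the test. Psmb6, which encodes the caspase-like cutting subunit beta1, read 6526 and 6921 on the untreated WT arrays and 8169 and 7977 on the irradiated ones, and 7629.7 and 7591 against 10265 and 10216 in TNFR KO hosts (0.35 ± 0.16 on the log2 scale, with the SE of limma, adjusted p = 0.319). Irradiated and untreated arrays of Psmb6 did not overlap in either host, and the irradiated TNFR KO arrays were the highest. Psmb5, which encodes the chymotrypsin-like subunit beta5, read 8618 and 9077 against 10041 and 9694 in WT and 9061 and 9358.5 against 11432 and 11171 in TNFR KO hosts (0.23 ± 0.16, adjusted p = 0.520). Psmb7, which encodes the trypsin-like subunit beta2, read 15305 and 15708 against 16909.7 and 16225 in WT and 15918 and 16589.6 against 19362 and 18403 in TNFR KO hosts (0.16 ± 0.16, adjusted p = 0.676). For all 3 cutting subunits the irradiated arrays lay above the untreated ones within each host, as they did for 15.1% of all tested genes.

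The sign of these small differences in WT hosts depended on the scaling. Centring each array on its median left 3 of the 7 beta subunits above 0 after irradiation of WT tumours, and moved the median difference of all genes there from -0.02 to -0.28. Relative to the median of all genes, 7 of 7 beta subunits lay higher in both hosts with the deposited scaling. With quantile normalization 6 of 7 lay higher in WT and 7 of 7 in TNFR KO hosts. Median centring cannot change these counts, because it shifts all genes of an array alike.

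The promoters of these genes were searched for a short motif read by NRF1 and NRF2, factors known to raise proteasome genes when protein breakdown falters. The motif TGACNNNGC (the core of the antioxidant response element, either strand) occurred in the 250 bases before the start site in 5 of the 38 members with a RefSeq promoter entry (13.2%) and in 11.5% of 27025 genes. The 5 were Psmb5, Psmb6, Psmc6, Psmd9 and Psmd12. The CCAAT box occurred in 15 of 38 members (39.5%) against 37.5% of all genes, and the core of the interferon-stimulated response element in 3 of 38 (7.89%) against 3.46%. These matches describe the letters of the window and no binding. After irradiation Psmc6, Psmd9 and Psmd12 differed by 0.02, 0.10 and -0.15 over both hosts, and a link between the motif and irradiation was not tested. The 100 bases before the start sites of the cutting subunits Psmb5 and Psmb6 (RefSeq, GRCm38.p6) are shown with the motif in capitals. They lie at chr14:54617996-54618095 on the minus strand and at chr11:70525257-70525356 on the plus strand.
Psmb5: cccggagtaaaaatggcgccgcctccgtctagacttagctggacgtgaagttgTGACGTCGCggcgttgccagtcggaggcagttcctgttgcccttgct
Psmb6: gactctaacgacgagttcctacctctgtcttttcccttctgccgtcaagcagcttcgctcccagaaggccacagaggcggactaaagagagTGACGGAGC

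The alpha ring and the 19S cap did not share 1 direction after irradiation. Among the 7 tested alpha subunits, 5 differences were above 0 and 2 below, with a median of 0.08, and 2 were above 0 with median centring and 4 with quantile normalization. Psma4, a structural alpha subunit, read 7499 and 7722 untreated and 6413 and 5947.5 irradiated in WT, and 5864 and 6417 against 4495 and 4528 in TNFR KO hosts (-0.37 ± 0.16 on the log2 scale, adjusted p = 0.285). Its irradiated arrays lay below its untreated ones in both hosts, whereas those of Psma2, Psma3 and Psma6 lay above. Another bright probe set of Psma6 read lower after irradiation in WT (-0.09) and higher in TNFR KO hosts (0.18), without overlap in either. Psma7, another alpha subunit, read lower in WT (-0.08) and higher in TNFR KO hosts (0.24), without overlap in either. Its second bright probe set gave 0.03 in WT, where the arrays overlapped, and 0.29 in TNFR KO hosts. The 6 ATPases of the cap were all above 0 over both hosts, between 0.02 (Psmc6) and 0.27 (Psmc4), and with median centring 2 and with quantile normalization 5 of the 6 were above 0. Of the 11 other cap subunits, 6 were above 0 and 5 below, and with median centring 1 and with quantile normalization 3 were above 0. Psmd1, a large scaffold subunit of the cap, gave the lowest of these differences (-0.27 ± 0.17, adjusted p = 0.463). It read 3561.5 and 3627 against 3339.9 and 3326 in WT, and 2868.5 and 2866 against 1988 and 2289 in TNFR KO hosts.

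The highest and the lowest differences after irradiation belonged to the alternative caps. Psme1, which encodes PA28 alpha, an activator inducible by interferon, read 6614 and 6822 on the untreated and 10126 and 9694 on the irradiated WT arrays. In TNFR KO hosts it read 6463 and 6279 against 8646 and 8591, and over both hosts the log2 difference was 0.50 ± 0.16 (adjusted p = 0.160). Its arrays did not overlap in either host, and no group of irradiated arrays reached the 1.5-fold difference used for single pools. The probe set shared by Psme2 and Psme2b read 3484 and 3275 against 5292 and 5294 in WT. In TNFR KO hosts it read 3606.5 and 3390.4 against 4216 and 4271. Its log2 difference was 0.65 in WT, past 1.5-fold without overlap of arrays, 0.28 in TNFR KO hosts and 0.46 over both hosts. Psme4, which encodes PA200, the cap linked to histone breakdown and DNA repair, read 3027 and 3089.9 against 1916 and 2735 in WT and 1473 and 1614 against 1015 and 1286.5 in TNFR KO hosts. Its log2 difference was -0.42 ± 0.16 (adjusted p = 0.226), the lowest of all members, and the irradiated duplicates of WT lay far apart. Psmf1, the inhibitor PI31, read 1304.5 and 1465 against 1921 and 1703 in WT and 2064 and 1965 against 2164 and 2665 in TNFR KO hosts (0.32 ± 0.16, adjusted p = 0.363). For Psmf1 only the brightest of 4 probe sets gave such a value, the others being at 0.05, -0.06 and -0.05. Psme3, which encodes PA28 gamma, an activator of the nucleus, differed by -0.15 ± 0.17 (adjusted p = 0.720).

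Radiation was also compared within each host, where 1 pool stands against 1 pool and no test is possible. A gene was called there when its pools differed by at least 1.5-fold and their duplicate arrays did not overlap. In WT hosts 0 of 44 members were called, against 10% of all tested genes (7.33% higher and 2.67% lower), and in TNFR KO hosts 0 of 44 against 8.66% (4.07% higher and 4.59% lower). Among the 7092 genes above the 75th percentile of signal, where all 44 members lie, the shares were 5.88% and 6.43%. Leaving out an array moved single members past the fold threshold: Psme1 (0.59) and Psme4 (-0.67) without WT irradiated replicate 2, Psmc4 (0.61) without TNFR KO untreated replicate 1, and Psme4 (-0.60) without TNFR KO irradiated replicate 2. Without regard to size, 12 members read higher in both hosts with no overlap of arrays, against 15.1% of all genes, and 7 read lower in both, against 18.9%. The 12, each read from its brightest probe set, were Psma2, Psma3, Psma6, Psmb3 to Psmb7, Psmc3, Psmd8, Psme1 and Psmf1. The 7 were Psma4, Psmd1, Psmd2, Psmd6, Psmd7, Psmd12 and Psme4.

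**Figure D2:**
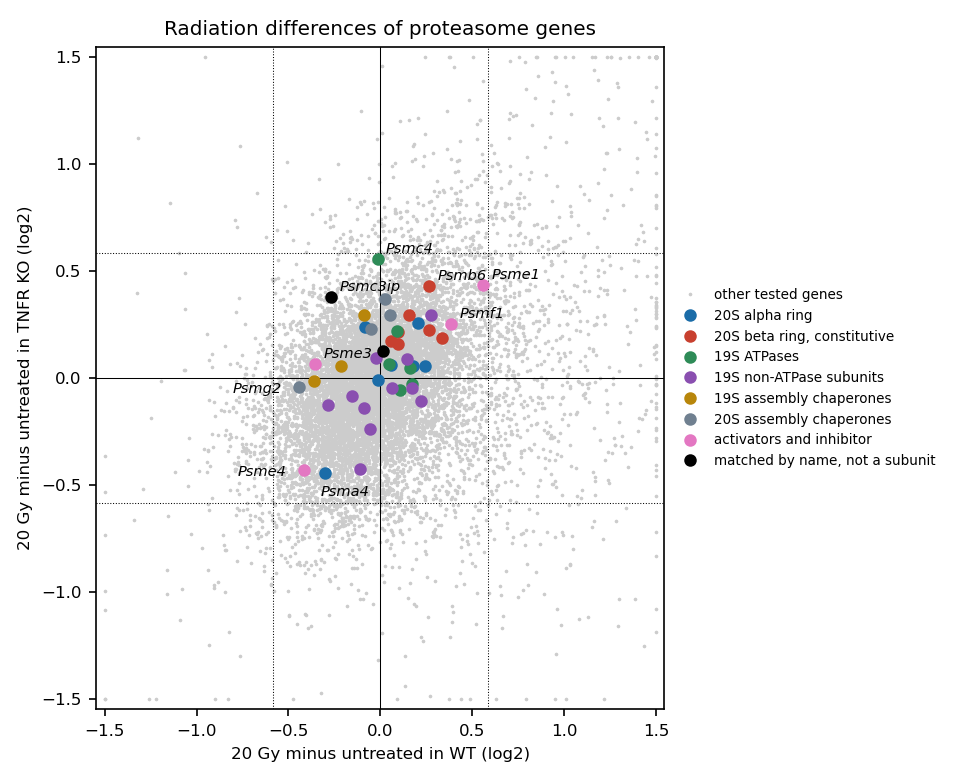
Log2 difference of 20 Gy minus untreated in WT (x axis) and TNFR KO (y axis) for the 44 tested members, coloured by role, and for the other tested genes (grey; values beyond 1.5 are drawn at the edge). Dotted lines mark 1.5-fold; every member lies inside them, Psme1 being the farthest to the right at 0.56 and Psmc4 the highest at 0.56.

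The constitutive cutting subunits were set beside the immunoproteasome subunits that can replace them. In WT hosts Psmb9, Psmb10 and Psmb8 were higher after irradiation by 1.12, 0.74 and 1.13 on the log2 scale, all past 1.5-fold without overlap, while Psmb6, Psmb7 and Psmb5 differed by 0.26, 0.10 and 0.16. Psmb8, for example, read 1217 and 1362 on the untreated and 2774 and 2899 on the irradiated WT arrays. In TNFR KO hosts Psmb10 and Psmb8 differed by 0.10 and 0.21, and Psmb7 and Psmb5 by 0.22 and 0.29. Psmb9 and Psmb6 there differed by 0.45 and 0.43. The radiation effect in TNFR KO hosts minus that in WT was -0.66, -0.64 and -0.92 for Psmb9, Psmb10 and Psmb8 (adjusted p = 0.0221, 0.0138 and 0.0093), in a limma fit on the 8 arrays that holds array noise only. For Psmb6, Psmb7 and Psmb5 it was 0.16, 0.12 and 0.14 (adjusted p = 0.244, 0.401 and 0.332). Whether the constitutive and the replacing subunits differ from each other was not tested.

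**Figure D3:**
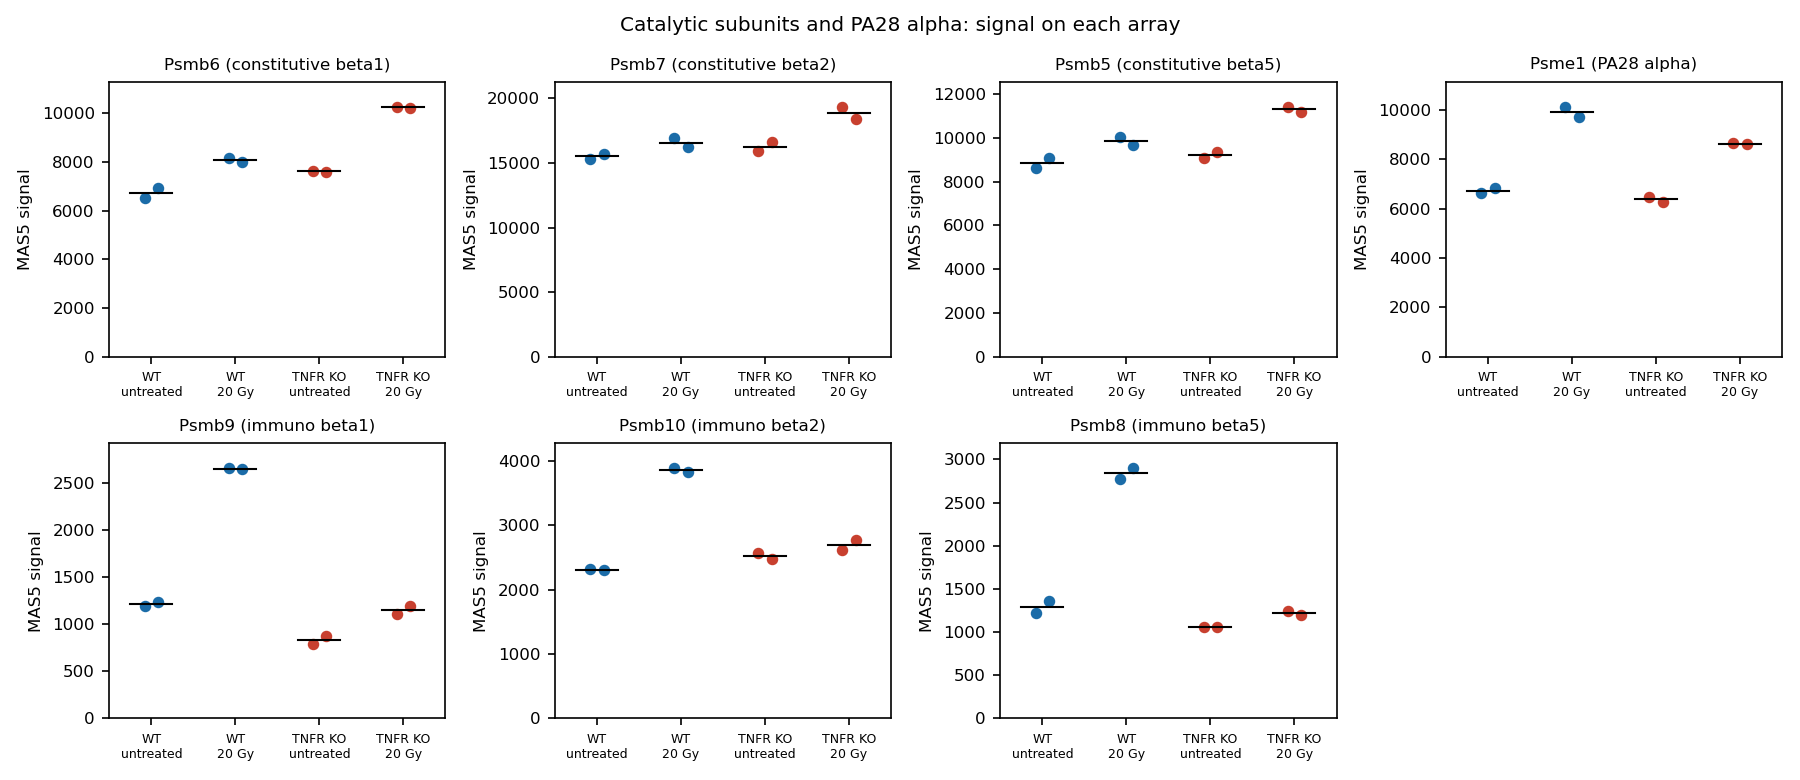
MAS5 signal (y axis, from 0, with its own scale in each panel) on each array (points) and pool mean (lines) for the constitutive cutting subunits and PA28 alpha (top) and the immunoproteasome subunits (bottom), in WT (blue) and TNFR KO hosts (red). The bottom row peaks in the irradiated WT pool (Psmb8 at 2774 and 2899), whereas Psmb5, Psmb6 and Psmb7 are highest in the irradiated TNFR KO pool.

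Proteasome transcripts of WT and TNFR KO hosts were next compared, with treatment as a term. The 19S cap subunits Psmc6, Psmd14 and Psmd12 and the PA200 gene Psme4 were lower in TNFR KO hosts, and the cap subunit Psmd3 and the inhibitor gene Psmf1 were higher. The cap as a whole did not share a direction: of its 17 subunits 12 lay above 0 and 5 below, with a median log2 difference of 0.22. These 6 of 44 members (13.6%) passed the test, against 30.9% of all tested genes (12% higher and 18.9% lower). The median log2 difference (TNFR KO minus WT) was 0.13 for members and 0.09 for all genes, and 29 members lay above 0 and 15 below. The median size was 0.27 for members and 0.33 for all genes.

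Psmc6, an ATPase of the cap ring, gave the largest host difference of the members. It read 3375 and 3335 (untreated) and 3526 and 3692 (irradiated) on the WT arrays, and 1367 and 1313 and then 1367 and 1213 on the TNFR KO arrays, 2.63-fold lower (log2 difference -1.39 ± 0.16, adjusted p = 0.000319). Every TNFR KO array lay below every WT array, and its other probe sets gave -1.60 and -1.69. The remaining 5 ATPases of the same ring differed by 0.01 (Psmc1) to 0.53 (Psmc4), and none of them passed.

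Psmd14, the deubiquitinase of the cap that removes ubiquitin chains, read 7015 and 6291 and then 6958 and 6150.4 in WT, and 3288 and 3379 and then 3482 and 3644 in TNFR KO hosts. It was 1.91-fold lower (-0.93 ± 0.16, adjusted p = 0.00204), with no overlap of hosts. Psme4 was 1.98-fold lower (-0.99 ± 0.16, adjusted p = 0.00148), with its TNFR KO arrays below every WT array, and its other probe sets above the level gave -0.83 and -1.04. Psmd12, a scaffold subunit of the lid of the cap, read 3892 and 4108 and then 3840.2 and 3843 in WT, and 2821 and 3051 and then 2405 and 2567 in TNFR KO hosts (1.45-fold lower, -0.54 ± 0.16, adjusted p = 0.0306). These values again did not overlap.

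The higher members gave smaller differences. Psmd3, another scaffold subunit of the lid, read 2218 and 2399 and then 2567 and 2823 in WT, and 3992 and 3389.9 and then 3291 and 3546 in TNFR KO hosts (1.42-fold higher, 0.51 ± 0.17, adjusted p = 0.0430). Psmf1 was 1.39-fold higher (0.47 ± 0.16, adjusted p = 0.0482), with TNFR KO arrays above the WT arrays, though its other probe sets gave 0.01, 0.18 and 0.08. Just past the threshold on the other side were Psmc4 (0.53 ± 0.18, adjusted p = 0.0505) and Psmd1 (-0.48 ± 0.17, adjusted p = 0.0506).

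**Figure D4:**
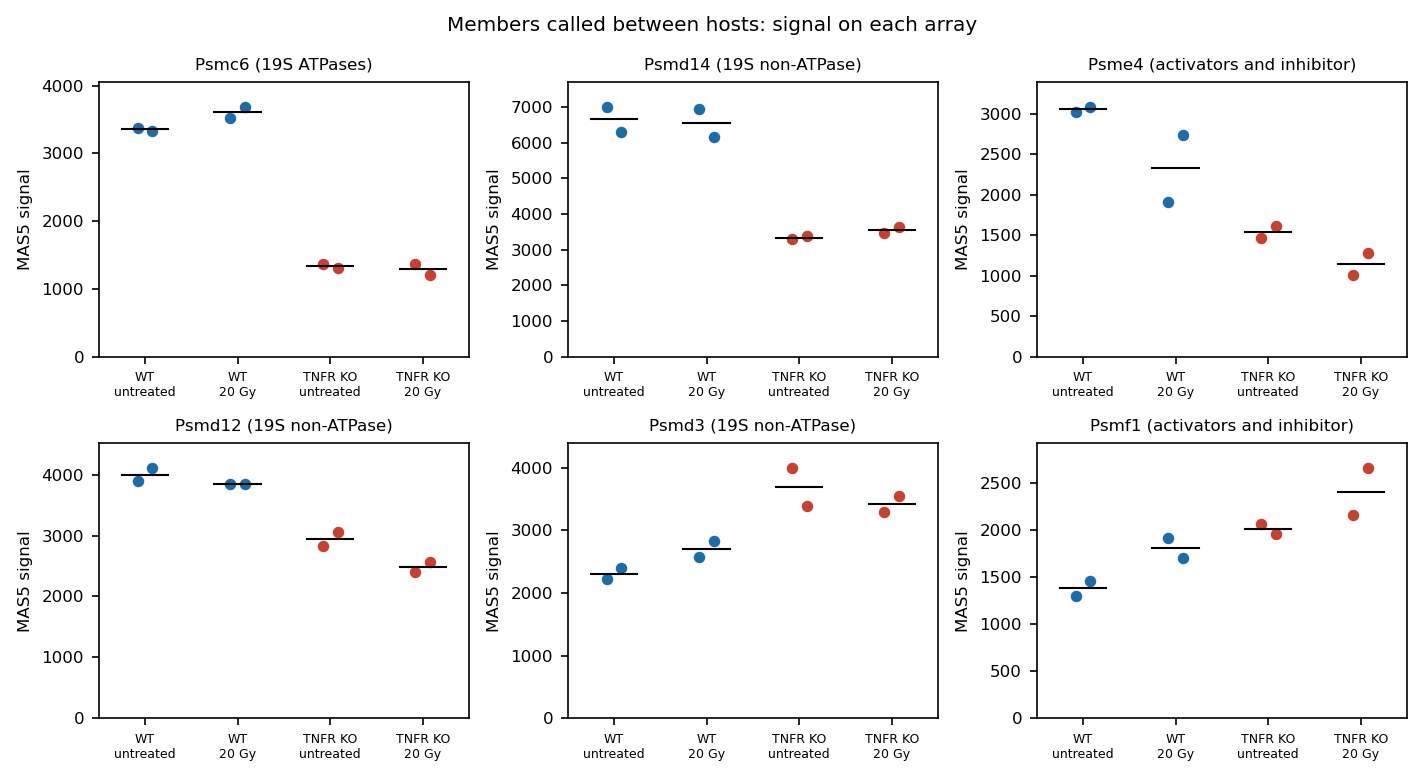
MAS5 signal (y axis, from 0) on each array (points) and pool mean (lines) for the 6 members called between hosts, in WT (blue) and TNFR KO hosts (red). WT and TNFR KO arrays do not overlap in any panel; Psmc6 shows the widest gap, between 3335 and 3692 in WT and between 1213 and 1367 in TNFR KO hosts.

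These calls were not equally firm. Psmc6, Psmd14 and Psme4 passed whichever array was left out, with adjusted p up to 0.0167, 0.0233 and 0.0199. Psmd12 passed only without TNFR KO untreated replicate 2 or WT irradiated replicate 2, Psmd3 only without WT irradiated replicate 2 and Psmf1 only without TNFR KO irradiated replicate 1, with adjusted p up to 0.0665, 0.103 and 0.123. Without the filter on level the fit called no gene at all between hosts (Psmc6 adjusted p = 0.0622), and with all probe sets of a gene averaged Psme4 (-0.39, adjusted p = 0.126) and Psmf1 (0.18, adjusted p = 0.414) did not pass. Psmd3 and Psmf1 also missed the threshold with quantile normalization, median centring or no pseudocount. Of 32 further probe sets of 21 members, 30 had the sign of the brightest one between hosts and 26 after irradiation.

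Among the other groups, the 7 alpha subunits lay on both sides between hosts (3 above 0 and 4 below), and none passed. The 7 beta subunits were all above 0, between 0.11 (Psmb3) and 0.42 (Psmb2, a structural beta subunit, adjusted p = 0.069), and none passed. With quantile normalization 3 of these 7 lay above the median of all genes. None of the 19S assembly chaperones Psmd5, Psmd9 and Psmd10 or the 20S assembly chaperones Psmg1 to Psmg4 passed, with differences between -0.24 (Psmd10) and 0.34 (Psmd9). Psme1 and Psme3 differed by -0.14 and 0.10, and neither passed.

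Within each treatment the same 3 members led. Untreated, 4 of 44 members were past 1.5-fold without overlap, against 25.8% of all tested genes (10.2% higher and 15.6% lower): Psmc6 (-1.31), Psmd14 (-0.99) and Psme4 (-0.98) lower and Psmd3 (0.67) higher. After irradiation there were 6 of 44, against 27.4% (9.28% higher and 18.1% lower): Psmc6 (-1.47), Psme4 (-0.99), Psmd14 (-0.87), Psmd1 (-0.64) and Psmd12 (-0.63) lower and Psmc4 (0.81) higher. Among genes above the 75th percentile of signal the shares were 22.4% untreated and 25.8% irradiated, and 29.8% in the test over both treatments. Psmc4, an ATPase of the ring that holds Psmc6, read 7295 and 7584 in WT and 13134 and 13014 in TNFR KO hosts after irradiation, and 7149 and 7899 against 9195 and 8582 untreated. Psmd9, an assembly chaperone of the cap, came next on the higher side (0.53), with 1084 and 972 in WT and 1501 and 1487 in TNFR KO hosts after irradiation. Psmd3 came under 1.5-fold without TNFR KO untreated replicate 1 (0.55), as did Psmd1 (-0.54) and Psmd12 (-0.58) without TNFR KO irradiated replicate 1. Psmf1 (0.62) passed it without WT untreated replicate 2, and Psmd9 (0.61) without WT irradiated replicate 1.

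**Figure D5:**
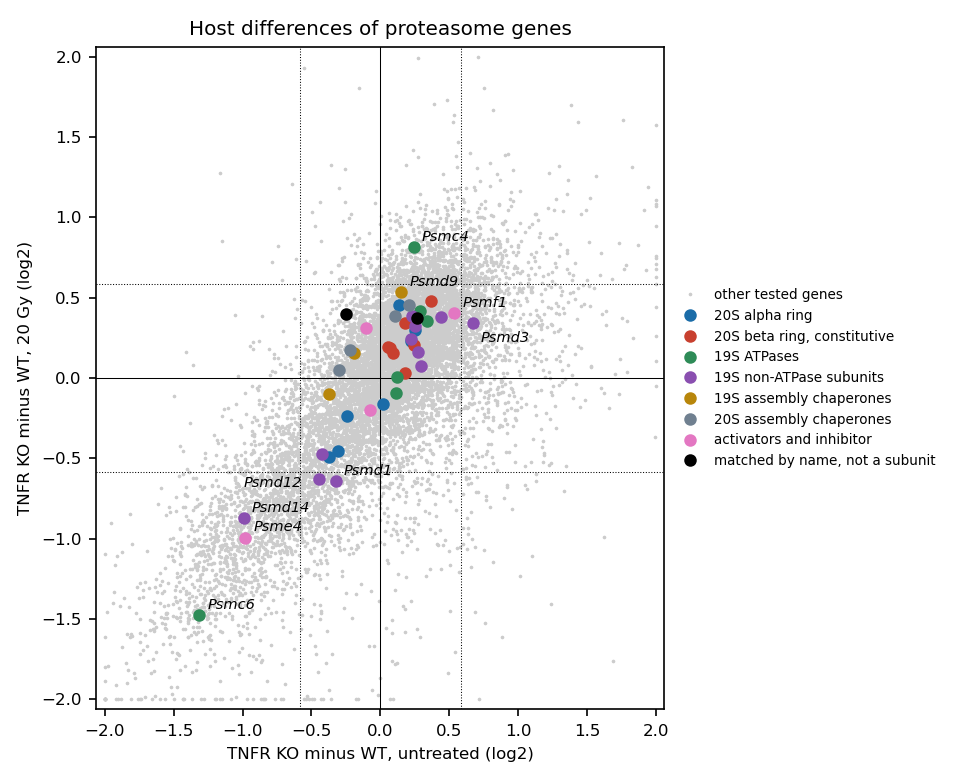
Log2 difference of TNFR KO minus WT in untreated (x axis) and irradiated tumours (y axis) for the 44 tested members, coloured by role, and for the other tested genes (grey; values beyond 2 are drawn at the edge). Dotted lines mark 1.5-fold; Psmc6 (-1.31 and -1.47), Psmd14 and Psme4 lie at the lower left, away from the other members.

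Other transcripts moved between the hosts beside these members, where 30.9% of all tested genes passed the test. All 5 tested neutrophil markers were lower in TNFR KO hosts, and the 6 on the array had a summed signal of 5311 to 5698 (untreated) and 27769 to 28406 (irradiated) in WT and 1211 to 1278 in TNFR KO hosts (Cxcr2 below the level). Of 7 fibroblast markers 4 were higher and 1 lower, and the sum of the 8 on the array was 6691 to 10226 in WT and 12692 to 19876 in TNFR KO hosts (Pdgfra below the level). Of 10 melanocyte markers 1 passed, Mitf, which was lower (-0.89, adjusted p = 0.00317). The part of these cells, of the spike-in difference or of the 129 background in the member differences was not tested.

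The promoters of the called cap members Psmc6 and Psmd12 also hold TGACNNNGC, here read on the opposite strand and therefore written as its reverse complement in capitals. The match lies 227 and 247 bases before the start site, and a stretch of 100 bases that contains it is shown. The motif occurred in 13.2% of the members with a promoter entry and in 11.5% of all genes. The other called members, Psmd3, Psmd14, Psme4 and Psmf1, were not among the 5 members with a match. A link between the motif and the host differences was not tested. The stretches are at chr14:45329574-45329673 for Psmc6 and at chr11:107479278-107479377 for Psmd12, both on the plus strand of GRCm38.p6 (RefSeq).
Psmc6: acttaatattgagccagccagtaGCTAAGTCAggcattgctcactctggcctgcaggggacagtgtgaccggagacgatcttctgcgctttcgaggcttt
Psmd12: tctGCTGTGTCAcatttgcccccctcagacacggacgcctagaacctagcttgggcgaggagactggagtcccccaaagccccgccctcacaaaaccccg

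Whether irradiation acted unequally in the hosts was tested on the 8 arrays, a fit that holds array noise and no spread between pools. The difference between radiation effects (TNFR KO minus WT) passed for 4 of 44 members, Psmc3ip, Psmc4, Psme3 and Psmg2, all above 0, against 9.55% of all tested genes (3.52% higher and 6.04% lower). Psmc4 differed by -0.01 after irradiation in WT and by 0.56 in TNFR KO hosts, and its second probe set by 0.01 and 0.29. Psmg2, a chaperone of alpha ring assembly, read 2761 and 2739 against 2051.5 and 1992 in WT and 2398 and 2312 against 2246 and 2329 in TNFR KO hosts, so for this probe set only the WT arrays stood apart. Its second bright probe set differed by -0.47 in WT and by -0.28 in TNFR KO hosts, where it read 2251 and 2109 against 1774 and 1803, so that the arrays of both hosts stood apart there. The 4 chaperones of the 20S core gave values of 0.24 to 0.40 and the 3 of the 19S cap 0.27 to 0.39. Only Psmg2 of these 7 passed. With median centring 5 did, where 2297 of 11345 genes passed. All 7 were above 0 also with quantile normalization. Median centring raised this difference by the same amount for every gene, so it is no check of the sign. None of the 4 calls held when any 1 array was left out (adjusted p between 0.056 and 0.119) or with the replicate block, and the 1084 calls among all genes came to between 235 and 409 without 1 array. Macrophage markers differed in the opposite direction. All 8 were called lower for the difference between radiation effects (median -1.28). After irradiation 7 of 8 read higher in WT past 1.5-fold, against 7.33% of all genes. In TNFR KO hosts 3 read lower, against 4.59%. Their summed signal was 4662 to 4771 untreated and 9055 to 9462 irradiated in WT, and 9283 to 9558 and then 6022 to 6226 in TNFR KO hosts. Also called lower for the difference between radiation effects were 5 of 7 fibroblast, 3 of 5 neutrophil, 3 of 5 keratinocyte and 1 of 7 endothelial markers. Called higher were 3 of 3 erythroid, 1 of 8 muscle and 1 of 10 melanocyte markers. The part of these cells in the member differences was not tested.

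Proteasome partners and regulators outside the naming rule were read from lists. Of 7 partner genes tested, 0 passed after irradiation, and Uchl5, Usp14 and Ecpas were lower in TNFR KO hosts. Among all tested genes 1.9% passed after irradiation and 18.9% were lower in TNFR KO hosts. Uchl5 and Usp14 encode the other deubiquitinases that act at the cap beside Psmd14. Uchl5 averaged 1706 in WT and 778 in TNFR KO hosts (-1.12 ± 0.16, adjusted p = 0.000836) and Usp14 2158 and 1303 (-0.72 ± 0.16, adjusted p = 0.00749). The maturation factor Pomp (0.03) and the small cap subunit Sem1 (0.09) did not pass.

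Of 11 regulators of proteasome genes, 4 were higher and 3 lower in TNFR KO hosts, and 0 passed after irradiation. The shares of all tested genes were 30.9% between hosts (12% higher and 18.9% lower) and 1.9% after irradiation. Nfe2l1, which encodes NRF1, was higher (0.80 ± 0.16, adjusted p = 0.00449), while Ngly1, the glycanase that NRF1 needs for activity (-1.21 ± 0.16, adjusted p = 0.000624), and Nfe2l2, which encodes NRF2 (-0.95 ± 0.16, adjusted p = 0.00192), were lower.

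Across the 8 arrays the subunits differed in how far they moved together. The median profile of the 31 tested 20S and 19S subunits, in log2 units around each gene's mean, was -0.18 and -0.10 on the untreated WT arrays, 0.02 and -0.01 on the irradiated WT arrays, 0.00 and -0.03 on the untreated TNFR KO arrays, and 0.14 and 0.11 on the irradiated ones. Psmd8, Psmb4 and Psma2 followed it most closely (Pearson's r 0.99, 0.99 and 0.98 over the 8 arrays), and Psma4 (-0.94), Psme4 (-0.88) and Psmd1 (-0.87) ran opposite to it. The 20S and 19S subunits named here are themselves part of that median. Outside the members, the most alike genes were Exoc7, Polr1c, Fxyd3, Ndufv1 and Vps28 (0.99 each), picked as the highest of all tested genes. These values describe 4 pools in duplicate, and arrays of a pool share their RNA.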

How the data were processed

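Whole tumours were profiled on 8 Affymetrix mouse expression arrays, 2 duplicates of each of 4 RNA pools. The authors deposited MAS5 signals, a linear intensity per probe set, per the submitters' processing notes. The trimmed mean of every array is 500.0. Signals were analysed as log2(signal + 16), so fold changes are on that scale. Of 45101 probe sets, 34945 name 1 gene, 932 several and 9160 none, and 64 are controls. The brightest single-gene probe set by mean log2 represented a gene. Genes were tested at or above the median of the probe sets that are not controls.

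Pool means were fitted with limma 3.58.1 (R 4.3.3) with host and treatment as additive terms, which leaves 1 residual degree of freedom beside 9.52 prior ones. P-values are two-sided and adjusted by Benjamini-Hochberg over 11345 genes, with a threshold of 0.05. Each sets an effect against an error drawn from how far the radiation effects of the hosts differ and, mostly, from the prior over all genes. That error does not hold the spread between animals, and the p-values are approximate. Single pools were compared by fold, without a test. The scripts were tested on simulated data. Figures were drawn with matplotlib 3.10.9 under Python 3.11.15.

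Named genes were the members that limma called, the 3 members at either end of the host and of the radiation differences, the 2 at either end within each pair of single pools, the cutting subunits, Psme1 and Psme2, the immunoproteasome genes, and up to 4 genes of each related list. Alternatives were other scalings, pseudocounts, filters, fold thresholds, probe set rules, variance models and each array left out. Members and lists were chosen with earlier results of these data known.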

Additional observations from a re-analysis of the deposited data

Results flagged for a closer look

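For 4 members the radiation effect differed between hosts in limma's test on the 8 arrays, which holds array noise only. The difference, TNFR KO minus WT on the log2 scale, was 0.65 ± 0.14 (SE) for Psmc3ip, 0.57 ± 0.10 for Psmc4, 0.42 ± 0.08 for Psme3 and 0.40 ± 0.08 for Psmg2 (adjusted p = 0.0418, 0.0299, 0.0358 and 0.0374). Psmc3ip read 759 and 804 against 615.5 and 678 in WT and 701 and 612 against 816 and 898 in TNFR KO hosts, opposite directions without overlap. Psme3 read 1689 and 1611 against 1292 and 1280.1 in WT and 1540.0 and 1521 against 1641 and 1563 in TNFR KO hosts, also opposite. Its second probe set above the level gave -0.09 in WT and -0.03 in TNFR KO hosts, while that of Psmc3ip gave -0.15 and 0.16 and that of Psmg2 -0.47 and -0.28. Of the members 9.09% passed, and of all tested genes 9.55%.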

How the results depend on the processing

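Each choice was changed alone. No called member changed direction under an alternative. Over both hosts, members called higher after irradiation (0) became 8 with 8 arrays and no replicate block, 5 with the replicate block and 1 with limma-trend, and members called lower (0) became 2 and 2 with the 8 arrays. The replicate numbers do not pair arrays, since deviations of same-numbered arrays correlated at -0.03 to 0.05. The median radiation difference (0.07) was 0.040 with quantile normalization, -0.070 with median centring, 0.083 without the filter and 0.11 with the mean of probe sets. Between hosts, members called higher (2) became 0 with quantile normalization, median centring, pseudocount 0 or no filter, 5 with pseudocount 64, the 75th percentile or the mean of probe sets, 20 and 19 with 8 arrays without and with the block, and 9 with limma-trend. Members called lower (4) became 7 with pseudocount 64 or the 75th percentile, 0 without the filter, 10 with 8 arrays with or without the block and 8 with limma-trend. The median host difference (0.13) was 0.046 with median centring.

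Within single pools, the settings in order are the lower fold threshold, limma on 8 arrays and the same with the replicate block. Members higher after irradiation in WT (0) became 3, 5 and 4, and 1 without the filter, and lower (0) became 4, 5 and 3, and 4 with median centring. In TNFR KO hosts higher (0) became 5, 11 and 5, and 1 without the filter, and lower (0) became 3, 2 and 2, and 1 with the mean of probe sets. Between untreated hosts higher (1) became 5, 16 and 10, with 2 under quantile normalization, 0 under median centring or 2-fold and 3 with the mean of probe sets, and lower (3) became 8, 12 and 11, with 5 under median centring and 1 at 2-fold. Between irradiated hosts higher (1) became 16, 24 and 17, with 3 for the mean of probe sets and 0 at 2-fold, and lower (5) became 8, 11 and 9, with 1 at 2-fold. With median centring the median differences were -0.21 (WT radiation, 0.05 as deposited), 0.047 (TNFR KO radiation, 0.08), -0.081 (untreated hosts, 0.12) and 0.22 (irradiated hosts, 0.19). The TNFR KO radiation median was 0.092 without the filter and 0.12 with the mean of probe sets, and the irradiated host median was 0.18 with quantile normalization or the mean of probe sets. The 4 calls of unequal radiation effects became 0 with the replicate block and 11 with median centring, the latter an alternative chosen after seeing the data, as were quantile normalization and leaving out arrays for that result. The cause of these changes was not tested.

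With each array left out, members called over both hosts after irradiation stayed at 0 higher and 0 lower (median 0.068 to 0.11). Host calls ran from 0 to 1 higher and 3 to 4 lower (median 0.12 to 0.16). Within WT they ran from 0 to 1 higher and 0 to 1 lower (median 0.02 to 0.08), and within TNFR KO hosts from 0 to 1 and 0 to 1 (median 0.072 to 0.10). Between untreated hosts they ran from 0 to 2 higher and 3 to 3 lower (median 0.08 to 0.16), and between irradiated hosts from 1 to 2 and 3 to 5 (median 0.18 to 0.23). Unequal radiation effects ran from 0 to 0. Over all genes, the 176 higher and 40 lower after irradiation ran from 0 to 100 and 0 to 17. They became 0 and 0 without the filter, 11 and 1 with quantile normalization, and 1062 and 1409 on 8 arrays without the block. The 1364 higher and 2140 lower between hosts became 0 and 0 without the filter, and ran from 500 to 983 and from 1534 to 1921 with each array left out. The 1084 calls of unequal radiation effects ran from 235 to 409, and became 2297 with median centring. Each group is 1 pool in duplicate, so the precision of every comparison is limited by the number of pools, and the spread between animals was not measured.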

Other observations

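Genes of MHC class I peptide loading act downstream of the proteasome. Of 8 tested, 2 passed after irradiation, against 1.9% of all tested genes. Tap1, a peptide transporter subunit (1.28, limma adjusted p = 0.00327), and Nlrc5, the activator of MHC class I genes (1.04, adjusted p = 0.0298), were higher over both hosts. Of the 8 differences 5 lay above 0 and 3 below, with a median of 0.09. In WT 7 of 8 read higher and 1 lower after irradiation without overlap, where 31.3% of all genes read higher. Past 1.5-fold were 2 of the 7, against 7.33% of all genes. Within TNFR KO hosts 2 genes read higher and 1 lower past 1.5-fold without overlap, against 4.07% and 4.59%. The difference between radiation effects, with array noise only, was below 0 for all 8 (median -0.44). It was called lower for 2, against 6.04% of all genes. Erap1, which trims peptides (-0.95), and Pdia3, a folding enzyme of the loading complex (-0.73), were lower in TNFR KO hosts. Of 6 tested genes of ubiquitin and its activation, 0 passed after irradiation, and Uba3 (-1.44) and Uba6 (-0.77), which activate ubiquitin-like proteins and ubiquitin, were lower in TNFR KO hosts. Among all tested genes 18.9% were lower in these hosts. Of 7 tested interferon gamma pathway genes, 0 passed after irradiation over both hosts, and 1 was higher and 5 lower in TNFR KO hosts. Within hosts these genes differed. In WT all 7 read higher after irradiation without overlap, against 31.3% of all genes, and 3 of them past 1.5-fold, against 7.33%. In TNFR KO hosts 4 read lower without overlap, as did 4046 of 11345 genes, and 1 of them past 1.5-fold, against 4.59%. The difference between radiation effects was called lower for 5 of 7 (median -0.75), against 6.04% of all genes.

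Markers of other cells also moved, where 1.9% of all tested genes passed after irradiation and 30.9% between hosts. After irradiation, 5 of 8 muscle and 2 of 5 keratinocyte markers were lower and 2 of 3 erythroid markers higher. Between hosts, 6 of 8 muscle markers were lower, while 3 of 7 endothelial, 2 of 3 erythroid and 5 of 5 keratinocyte markers were higher in TNFR KO hosts. None of 8 macrophage markers passed either of these tests, and their median difference after irradiation was 0.74 in WT and -0.35 in TNFR KO hosts. Of 9 T and NK cell markers, 8 were below the level for testing.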
